A study of Drosophila melanogaster with 26 samples.

Results

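The 6 genes described here are Hsp83, Hsp26, Hsp27, Hsp23, Hsc70-4 and Hsp60A, heat shock and chaperone genes of Drosophila melanogaster taken as a set of maternal mRNAs. Maternal mRNAs are present in the egg before the embryo's own genome is switched on. No library here was made from eggs, so this origin was not measured, and Hsp23 was high in several libraries with little Hsp83. The 6 genes were taken by gene symbol from the 14220 symbols listed in every library. All 6 were found and passed the filter on low values in every comparison. Their levels were followed in 26 RNA sequencing libraries of whole embryos staged to nuclear cycles 13 to 14, each made from 3 pooled embryos. The study asked what happens in embryos whose Zelda protein lacks the fifth zinc finger. The wild type of day 1 (3 libraries) carries the genotype label sfGFP-ZLD, and that of day 2 (6 libraries) the label H2B-EGFP, so the wild-type line and the day change together. The Zf5 embryos of day 1 (3 libraries) and day 2 (6 libraries) are labelled mNG-ZF5 GLC. The Zld294 embryos (8 libraries) carry the genotype label Zld294 and were all collected on day 3, so that this genotype and its day cannot be told apart.

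Chaperones bind unfolded or newly made proteins and help them to fold. Heat shock genes of this kind are best known for their induction by heat, but several are transcribed in the nurse cells of the ovary without any stress and their mRNAs are loaded into the egg. Many maternal mRNAs are degraded during the maternal-to-zygotic transition, when Zelda, a zinc finger pioneer transcription factor, opens the first zygotic promoters. Hsp83 mRNA is a classical case: the RNA-binding protein Smaug recruits a deadenylase to it, and it is lost from the bulk of the embryo but kept at the posterior pole, where the germ cells form.

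Hsp83 (FBgn0001233) encodes Hsp90 and lies at 3L:3192969-3197059 on the plus strand of BDGP6.54, the build of the Ensembl annotation used for positions. It overlaps CG14966 on the opposite strand, which was listed at 8.79 to 27.9 TPM. Hsp26 (FBgn0001225, 3L:9376418-9377427, minus strand), Hsp23 (FBgn0001224, 3L:9381882-9382765, plus strand) and Hsp27 (FBgn0001226, 3L:9384063-9385694, plus strand) encode small heat shock proteins, which hold unfolded proteins in solution. These small heat shock genes lie within 9277 bp of each other, and 5 annotated genes lie wholly inside that stretch, among them Hsp67Ba. Hsp27 overlaps CR43483, which reaches into the stretch from its end on the opposite strand. Hsc70-4 (FBgn0266599, 3R:15242687-15246614, plus strand) encodes the major constitutive cytoplasmic Hsp70. Hsp60A (FBgn0015245, X:11108482-11112308, plus strand) encodes the mitochondrial chaperonin. The use of strand in counting is not given in the sources used here, so reads of overlapping genes may not have been separated.

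Values are TPM (a relative transcript abundance), which are corrected for transcript length and sum to 1000000 in each library. Read depth is unknown, so no counting interval can be given. The labels do not say whether replicates came from separate crosses or collections, so p-values measure the spread between these pools of embryos. zld mRNA ranged from 900.2 to 1344 TPM in the wild type, from 148 to 953 TPM in Zf5 and from 0.0873 to 43.2 TPM in Zld294. A gene-level value cannot show the loss of a single zinc finger. Between 6716 and 7552 genes reached 1 TPM in 24 libraries, but 8847 and 8913 did in replicates 4 and 6 of Zf5 day 2. elav, a marker of neurons of later embryos, stood at 106 and 44.8 TPM in replicates 4 and 6, against at most 11.1 TPM in the wild type. It was also listed at 39.2 TPM in replicate 2 of that group and at 3.11 to 25.4 TPM in Zf5 day 1. These values stand apart from a label of nuclear cycle 14. The summed level of all 5 later-embryo markers reached 126 TPM in Zf5 day 2, 36.2 in Zf5 day 1, 17.6 in WT day 1, 11.9 in Zld294 and 5.25 in WT day 2. Their part in the results below was not tested, but the comparisons with Zf5 are also given without replicates 4 and 6. The 8 eggshell and follicle cell markers summed to at most 3.05 TPM in any library, and the 6 muscle and gut markers to at most 9.33 TPM.

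The 6 mRNAs fell into 3 kinds of behaviour over the libraries. Hsp83, Hsp26, Hsp27 and Hsp60A were abundant but very uneven, with large differences between libraries of the same group. Hsc70-4 was among the 8 most abundant mRNAs of every library and hardly varied. Hsp23 had the lowest mean over all libraries, 33.1 TPM, and was high in several libraries with little Hsp83. In log2(TPM + 1), the SD of Hsp26 over the 26 libraries (1.75) was larger than that of 96.2% of the 6418 genes with a mean of at least 5 TPM. The matching shares were 95.8% for Hsp83, 95.6% for Hsp27, 92.7% for Hsp60A and 68.5% for Hsp23. Only 0.109% of these genes had a smaller SD than Hsc70-4 (0.14). In whole-embryo RNA, fewer cells holding an mRNA and less of it per cell cannot be told apart.

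**Figure D1:**
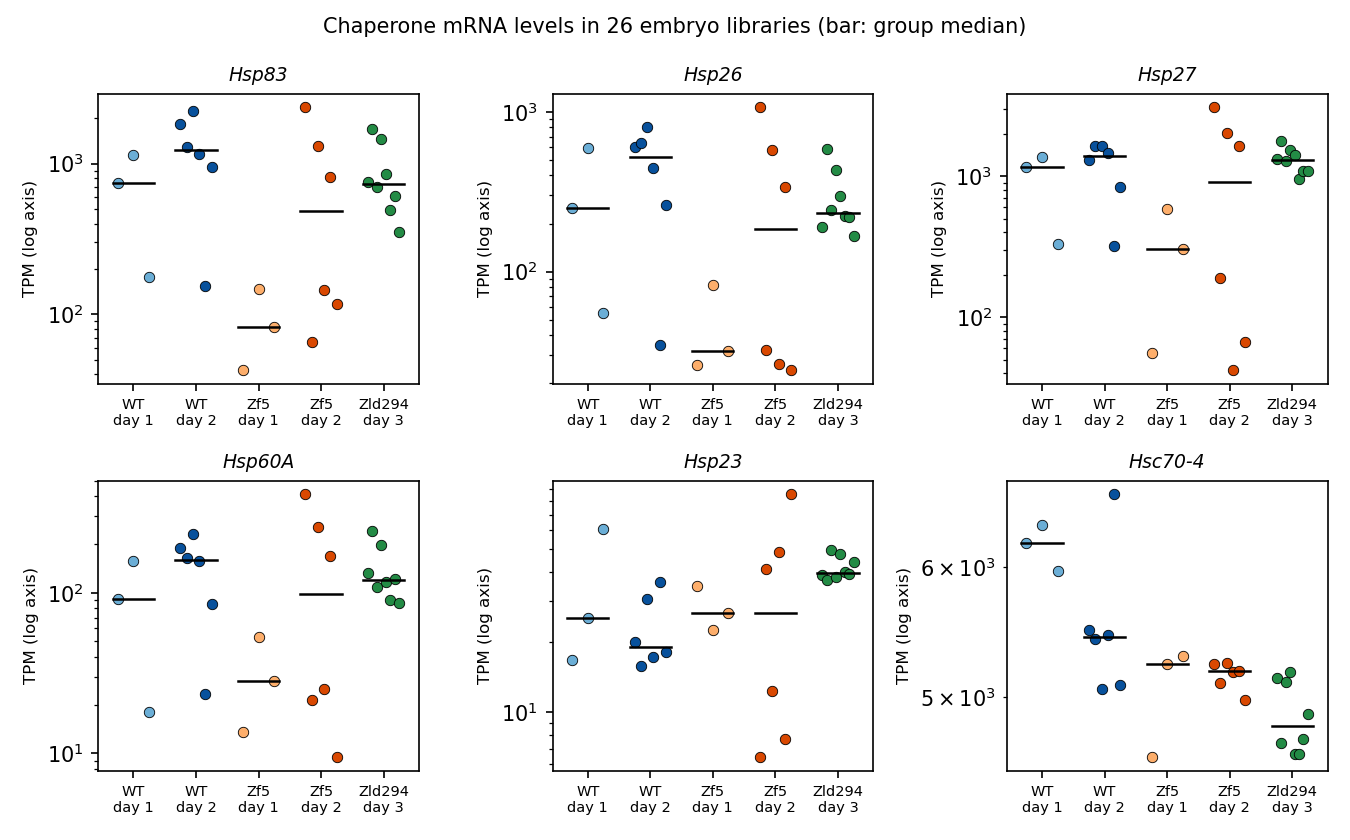
TPM (log axis) of the 6 mRNAs in each of the 26 libraries by genotype and day; each point is a library and the bar is the group median. Hsp83, Hsp26, Hsp27 and Hsp60A spread widely within groups, most of all in Zf5 day 2, while Hsc70-4 stays between 4595 and 6647 TPM.

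Hsp83 had 742, 1141 and 177 TPM in WT day 1. In WT day 2 the lowest, median and highest values were 154, 1227 and 2222 TPM. In Zf5 day 1 it had 42.5, 147 and 82.0 TPM, all under the lowest WT day 1 library. Here and below, separations of groups like this are descriptions, because the share of all genes that separate in this way was not computed. Zf5 day 2 ran from 65.2 through a median of 483 to 2390 TPM, with replicates 2, 4 and 6 under every WT day 2 library and replicate 1 above them all. Zld294 ran from 352 through 728 to 1689 TPM, inside the wild-type range. The group means were ordered WT day 2 (1270 ± 719), Zld294 (863 ± 468), Zf5 day 2 (808 ± 919), WT day 1 (687 ± 485) and Zf5 day 1 (90.6 ± 52.9; SD, n = 6, 8, 6, 3 and 3). Neighbours in this order differ by less than the larger of their SDs, except WT day 1 and Zf5 day 1.

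Zf5 was compared with the wild type over both days, with the day in the fit. None of the 6 mRNAs passed an adjusted p of 0.05 (limma, Benjamini-Hochberg over 8151 genes), where 5.20% of all genes tested did. Of the 6, 1 had an unadjusted p under 0.05 in this fit, as did 2077 of all genes. Hsp83 had the largest difference among them, a log2 fold change of -1.82 (SE 0.70, adjusted p = 0.121 by limma). Within day 1 its log2 fold change was -2.71 (SE 0.76, adjusted p = 0.156 by limma). Again 0 of the 6 passed on day 1, against 1.69% of all genes, with 3 of the 6 and 1270 of all genes under an unadjusted p of 0.05. Replicate 3 of WT day 1 had the lowest Hsp83 of that group and the most elav of the wild type (11.1 TPM). Without this library Hsp83 passed in day 1 at -3.50 (adjusted p = 0.0231 by limma), as did Hsp26 at -3.20 (adjusted p = 0.0301), where 16.7% of all genes did. Within day 2 the difference for Hsp83 was -1.38 (SE 0.93, adjusted p = 0.641 by limma), 0 of the 6 passed, and 1.90% of all genes did. At an unadjusted p under 0.05, 0 of the 6 and 812 of all genes passed on day 2.

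Leaving out replicates 4 and 6 of Zf5 day 2, a choice made after seeing the data, still gave 0 of 6 over both days. It moved Hsp83 to -1.42 (adjusted p = 0.329 by limma), Hsp26 to -0.99, Hsp27 to -0.63, Hsp60A to -0.28, Hsp23 to -0.49 and Hsc70-4 to -0.17. Within day 2 the same omission left Hsp83 at -0.61 (adjusted p = 0.832 by limma), Hsp26 at -0.19, Hsp23 at -0.73 and Hsc70-4 at -0.085, while Hsp27 (0.16) and Hsp60A (0.29) were on the positive side, with 0 of 6 passing. Without replicate 1 of Zf5 day 2, the highest library, Hsp83 passed over both days at -2.19 (adjusted p = 0.0416 by limma), where 10.7% of all genes did. The difference between the Zf5 effects of day 2 and day 1 was 1.33 for Hsp83 (SE 1.50, adjusted p = 0.987 by limma). No mRNA of the 6 passed that test, at an unadjusted p under 0.05 either, where 0.478% of all genes passed with adjustment and 413 without. Leaving out replicates 4 and 6, the day difference was 2.10 for Hsp83 (adjusted p = 0.590 by limma), 2.08 for Hsp26, 2.06 for Hsp27, 1.49 for Hsp60A, 0.21 for Hsc70-4 and -0.63 for Hsp23, and again 0 of 6 passed.

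Hsp26 followed Hsp83 at a lower level. It had 249, 598 and 55.2 TPM in WT day 1, and 34.7, 524 and 808 TPM as the lowest, median and highest of WT day 2. Zf5 day 1 had 26.2, 82.6 and 32.0 TPM, of which 2 lay under all of WT day 1. Zf5 day 2 ran from 24.1 through 186 to 1079 TPM, with replicates 2, 4 and 6 under all of WT day 2 and replicate 1 above. Zld294 ran from 167 through 234 to 589 TPM, inside the wild-type range. The means were ordered WT day 2 (465 ± 280), Zf5 day 2 (346 ± 423), WT day 1 (301 ± 275), Zld294 (296 ± 145) and Zf5 day 1 (46.9 ± 31.0; SD, n = 6, 6, 3, 8 and 3), and only the last step, from Zld294 to Zf5 day 1, exceeds the larger SD of the pair. Zf5 against the wild type over both days gave a log2 fold change of -1.65 (SE 0.81, adjusted p = 0.210 by limma).

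Hsp27, the most abundant of the 3 small heat shock mRNAs per length, had 1165, 1365 and 328 TPM in WT day 1. In WT day 2 it ran from 318 through 1389 to 1638 TPM. Zf5 day 1 had 55.3, 588 and 305 TPM, overlapping WT day 1 in replicate 2 alone. Zf5 day 2 ran from 41.9 through 907 to 3117 TPM, with 3 libraries under all of WT day 2 and 2 above. Zld294 was the most even group, from 953 through 1302 to 1766 TPM. The means were ordered Zld294 (1310 ± 266), WT day 2 (1201 ± 524), Zf5 day 2 (1177 ± 1279), WT day 1 (953 ± 549.9) and Zf5 day 1 (316 ± 267; SD, n = 8, 6, 6, 3 and 3), and only the step from WT day 1 to Zf5 day 1 exceeds the larger SD of the pair. Zf5 against the wild type over both days gave -1.51 (SE 0.79, adjusted p = 0.237 by limma).

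Hsp60A had 91.4, 157 and 18.1 TPM in WT day 1 and ran from 23.6 through 160 to 232 TPM in WT day 2. Zf5 day 1 had 13.6, 53.2 and 28.2 TPM, of which 1 lay under all of WT day 1. In Zf5 day 2 the lowest value was 9.44 and the highest 414 TPM. Zld294 ran from 85.9 to 242 TPM. The means were ordered Zf5 day 2 (149 ± 163), WT day 2 (142 ± 75.3), Zld294 (137 ± 54.7), WT day 1 (88.9 ± 69.5) and Zf5 day 1 (31.7 ± 20.0; SD, n = 6, 6, 8, 3 and 3), and every step is smaller than the larger SD of the pair. Zf5 against the wild type over both days gave -0.90 (SE 0.69, adjusted p = 0.439 by limma).

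These 4 mRNAs were high and low in the same libraries. Across the 26 libraries the Pearson correlation of log2(TPM + 1) with Hsp83 was 0.97 for Hsp26, 0.94 for Hsp60A and 0.88 for Hsp27. Within WT day 2 the 3 values were 0.99, 0.98 and 0.95, and within Zld294 they were 0.93, 0.96 and 0.91 (n = 6 and 8). All points share the total of their library, and the libraries share genotypes and days, so these are descriptions with no test. In WT day 1 all 4 were lowest in replicate 3, in WT day 2 all 4 in replicate 5, and in Zf5 day 1 all 4 in replicate 1. Their proportions were not fixed. The ratio of Hsp60A to Hsp83 in TPM was 0.102 to 0.138 in WT day 1 and 0.0898 to 0.154 in WT day 2. It was 0.319 to 0.361 in Zf5 day 1, above all of the 9 wild-type libraries. In Zf5 day 2 it spanned 0.0808 to 0.327 and in Zld294 0.136 to 0.244. Hsp27 to Hsp83 had medians of 1.57 in WT day 1, 1.07 in WT day 2, 3.72 in Zf5 day 1, 1.42 in Zf5 day 2 and 1.77 in Zld294, with overlapping ranges.

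**Figure D2:**
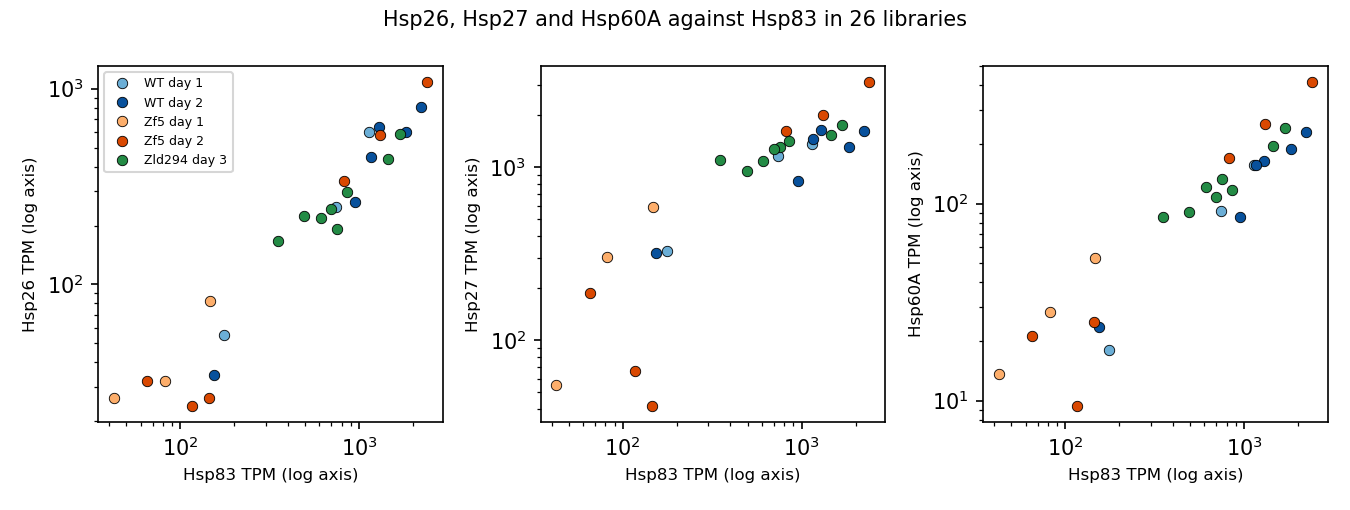
TPM of Hsp26, Hsp27 and Hsp60A against TPM of Hsp83 in the same library (both axes log); each point is a library, coloured by genotype and day. The points run along a rising band with Pearson correlations of 0.97, 0.88 and 0.94 over the 26 libraries, and the 3 Zf5 day 1 libraries lie at its low end.

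Hsc70-4 had 6204, 6363 and 5962 TPM in WT day 1. In WT day 2 it ran from 5060 through 5441 to 6647 TPM, with replicate 5 far above the rest. Zf5 day 1 had 4595, 5240 and 5292 TPM, all under WT day 1. Zf5 day 2 ran from 4981 to 5244 TPM and Zld294 from 4616 to 5180 TPM. The means were ordered WT day 1 (6176 ± 202), WT day 2 (5528 ± 580), Zf5 day 2 (5154 ± 99.5), Zf5 day 1 (5042 ± 388) and Zld294 (4866 ± 241; SD, n = 3, 6, 6, 3 and 8). Only the step from WT day 1 to WT day 2 exceeds the larger SD of the pair. The whole range over the 26 libraries was 1.45-fold, against 56.2-fold for Hsp83. Zf5 against the wild type gave -0.16 over both days (SE 0.087, adjusted p = 0.255 by limma) and -0.29 on day 1 (SE 0.12, adjusted p = 0.281).

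Hsp23 was high in several libraries where the other small heat shock mRNAs were low. It had 16.7, 25.3 and 60.8 TPM in WT day 1, highest in replicate 3, where Hsp26, Hsp27 and Hsp83 were lowest. WT day 2 ran from 15.8 through 19.0 to 36.2 TPM, with the highest value in replicate 5, again the library lowest in Hsp83. Zf5 day 1 had 34.7, 22.5 and 26.6 TPM, within the WT day 1 range. In Zf5 day 2 the values were 6.43, 12.3 and 7.69 TPM in replicates 1, 3 and 5 and 41.1, 48.4 and 86.2 TPM in replicates 2, 4 and 6. The first 3 lie under all WT day 2 libraries and the other 3 above them all. Zld294 ran from 36.7 through 39.5 to 49.6 TPM, all above WT day 2 and inside the range of WT day 1. The means were ordered Zld294 (41.7 ± 4.76), WT day 1 (34.2 ± 23.4), Zf5 day 2 (33.7 ± 31.3), Zf5 day 1 (27.9 ± 6.23) and WT day 2 (22.98 ± 8.36; SD, n = 8, 3, 6, 3 and 6), and every step is smaller than the larger SD of the pair. Zf5 against the wild type over both days gave -0.022 (SE 0.43, adjusted p = 0.982 by limma). The correlation of Hsp23 with Hsp26 was -0.57 and with Hsp60A -0.60 over the 26 libraries. Within Zld294 it was -0.39 with Hsp26 and -0.20 with Hsp27 (n = 8), and within WT day 2 it was -0.57 and -0.61 (n = 6), all without a test.

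Zld294 was compared with all 9 wild-type libraries. Hsp23 was higher in Zld294 by a log2 fold change of 0.75 (SE 0.22, adjusted p = 0.0298 by limma) and Hsc70-4 was lower by a small margin, at -0.23 (SE 0.065, adjusted p = 0.0207). These 2 of 6 passed, where 15.0% of all genes tested did. Hsp27 (0.42), Hsp60A (0.44), Hsp26 (-0.048) and Hsp83 (-0.067) had log2 fold changes with adjusted p from 0.417 to 0.966 by limma. The 95% interval for Hsp83 was -1.13 to 1.001. Both calls depended on which wild type was used. Against WT day 2 alone, Hsp23 was higher by 0.89 (adjusted p = 0.00178 by limma) and Hsc70-4 did not pass (-0.18, adjusted p = 0.0565), where 23.8% of all genes did. Against WT day 1 alone, Hsc70-4 was lower by -0.34 (adjusted p = 0.00175 by limma) and Hsp23 did not pass (0.47, adjusted p = 0.236), where 27.0% of all genes did. Rescaling the libraries by the median ratio over genes ended both calls, with adjusted p of 0.0809 for Hsp23 and 0.0514 for Hsc70-4 by limma. The Hsp23 call was also lost in 8 of 17 fits that left out a single library, with adjusted p from 0.000902 to 0.0594 by limma over the 17. These losses came without replicates 1, 2, 4 or 6 of WT day 2, replicate 1 of WT day 1, or replicates 3, 5 or 8 of Zld294, where the log2 fold change ran from 0.68 to 0.74. Hsp23 also missed the threshold with all 26 libraries in the fit (adjusted p = 0.324 by limma), and Hsc70-4 with no filter on low values (adjusted p = 0.0689).

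Against all Zf5 libraries, Zld294 had log2 fold changes of 1.93 for Hsp27 (SE 0.78), 1.76 for Hsp83 (SE 0.71), 1.61 for Hsp26 (SE 0.73), 1.34 for Hsp60A (SE 0.65), 0.77 for Hsp23 (SE 0.40) and -0.073 for Hsc70-4 (SE 0.079). The smallest adjusted p among them was 0.125 (limma), so 0 of 6 passed, where 6.57% of all genes did. At an unadjusted p under 0.05, 3 of the 6 and 2040 of all genes passed. Without replicate 1 of Zf5 day 2, Hsp83 (2.18), Hsp27 (2.33), Hsp26 (2.05) and Hsp60A (1.71) passed, with adjusted p from 0.0232 to 0.0356 by limma, where 29.8% of all genes passed. Without replicate 3 of that group, Hsp83 (2.07) and Hsp27 (2.25) passed, with adjusted p of 0.0460 and 0.0478 by limma, where 17.3% of all genes passed. Without replicates 4 and 6, 0 of 6 passed, with Hsp83 at 1.53, Hsp27 and Hsp23 at 1.17, Hsp26 at 1.10, Hsp60A at 0.87 and Hsc70-4 at -0.075, and the smallest adjusted p was 0.0570 for Hsp23 by limma. Against the 3 Zf5 day 1 libraries alone, 5 of 6 passed: Hsp83 (3.24), Hsp26 (2.69), Hsp27 (2.57), Hsp60A (2.19) and Hsp23 (0.58), with adjusted p from 0.000231 to 0.00527 by limma. In that comparison 58.5% of all genes passed. This comparison shares the Zld294 libraries with the previous one and the Zf5 libraries with the comparison before it.

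**Figure D3:**
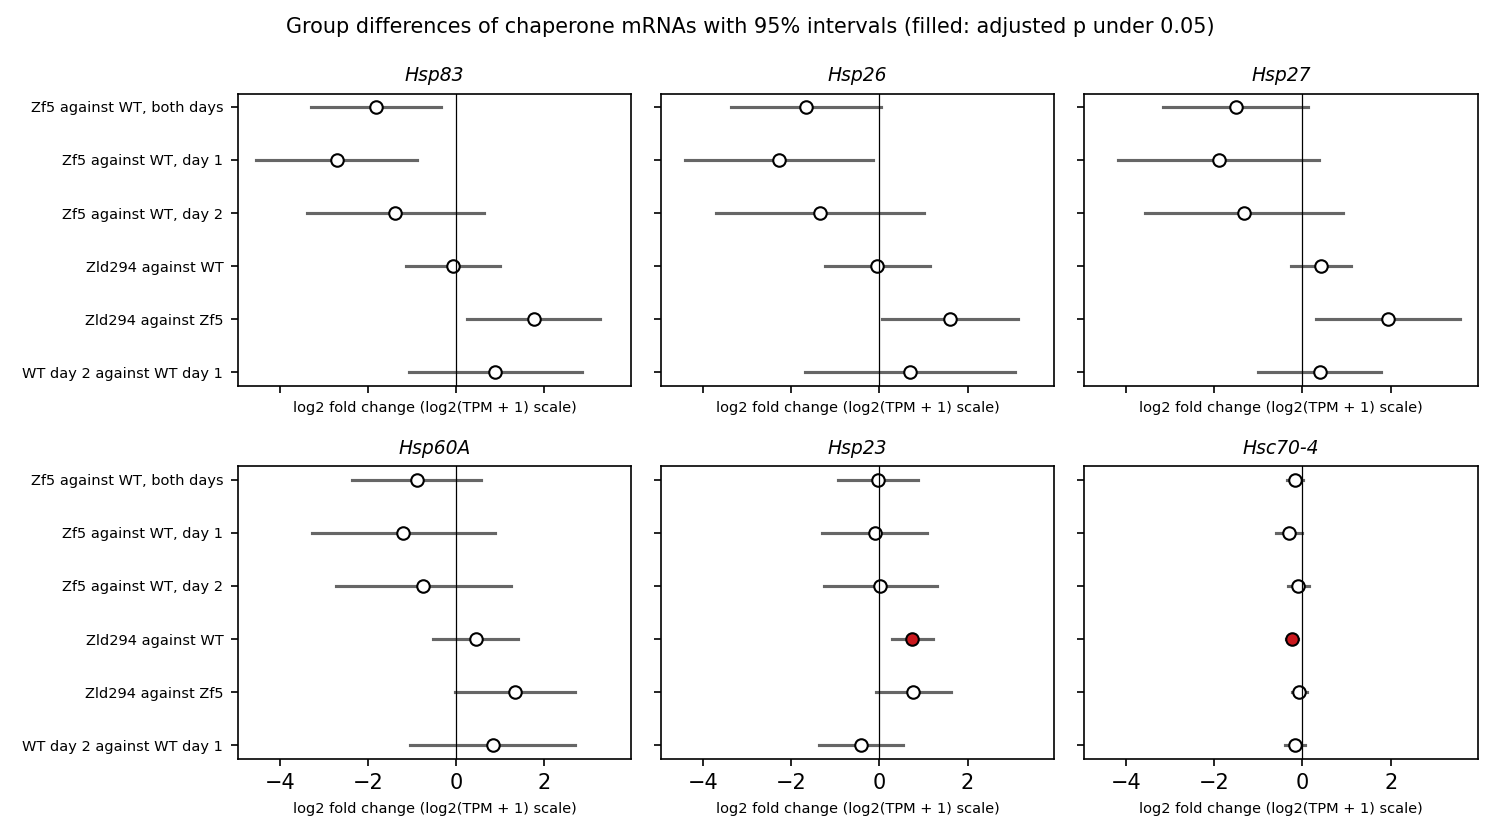
Log2 fold changes on the log2(TPM + 1) scale with 95% intervals (lines) for the 6 mRNAs in 6 comparisons; filled points have an adjusted p under 0.05 by limma. Only Hsp23 and Hsc70-4 in Zld294 against the wild type are filled, and the intervals of Hsc70-4 are the narrowest.

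Between the wild-type lines, day 2 against day 1, 0 of 6 passed (adjusted p from 0.395 to 0.756 by limma), where 8.20% of all genes did. Without adjustment 0 of the 6 and 1650 of all genes were under 0.05. The log2 fold changes ran from 0.89 for Hsp83 (SE 0.87) to -0.42 for Hsp23 (SE 0.42). The median over all genes in this comparison was 0.19, and 0.015 after rescaling by the median ratio.

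Because the embryos spanned nuclear cycles 13 to 14, each library was given a zygotic stage score, the mean log2(TPM + 1) of 28 patterning genes that embryos switch on themselves, such as eve, ftz and Ubx. These genes can themselves respond to Zelda, so correlations with the score were computed only within a group. Where the score enters a fit across genotypes as a covariate, a genotype effect on its genes and a difference in stage cannot be told apart. It ran from 0.521 to 1.93 in WT day 2, 1.26 to 2.44 in WT day 1, 2.74 to 3.20 in Zf5 day 1, 0.625 to 3.60 in Zf5 day 2 and 0.637 to 2.54 in Zld294. All Zf5 day 1 libraries thus scored above all WT day 1 libraries, and 8 of 25 tested genes of the list were higher in Zf5 over both days with 0 lower (limma, adjusted p under 0.05). A difference between these groups in genotype and a difference in stage cannot be told apart. Groups of 3 libraries were too small for a correlation.

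Within Zld294, libraries with a higher score had less Hsp27 (Pearson r = -0.91), Hsp83 (r = -0.88) and Hsp60A (r = -0.86), each with an adjusted p of 0.00952 by an exact permutation test, two-sided, with Benjamini-Hochberg adjustment over 18 relations (n = 8). Spearman's rho was -0.86, -0.93 and -0.90 in these relations, with adjusted exact permutation p of 0.0482, 0.0250 and 0.0274. Leaving out the 2 libraries farthest from the median score gave r of -0.86, -0.78 and -0.75. The slopes, in log2 units per unit of score, were -0.86 for Hsp83, -0.58 for Hsp60A and -0.34 for Hsp27. Hsp26 (r = -0.71) missed the threshold at an adjusted exact permutation p of 0.0808, and its rho was -0.62 (adjusted p = 0.172). The 18 relations covered the mRNAs of the set only, and the share of all genes that would pass was not computed. Passing is therefore not read as particular to these mRNAs, here or in WT day 2.

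Within WT day 2, Hsp27 passed with r = -0.91 (adjusted exact permutation p = 0.0400, n = 6), with rho = -0.77 (adjusted p = 0.172) and r = -0.92 without the 2 farthest libraries. Hsp60A (r = -0.86), Hsp26 (r = -0.84) and Hsp83 (r = -0.79) did not pass, with adjusted exact permutation p of 0.05, 0.0550 and 0.0808, and the smallest raw p that 6 libraries allow is 0.00278. The slopes in WT day 2 were -2.16 for Hsp83 and -2.77 for Hsp26. Hsp23 and Hsc70-4 passed in neither group, and the sign of r for both was positive in WT day 2 (0.49 and 0.67).

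The Zf5 day 2 libraries fell into separate clusters of the score, with replicates 1 and 3 at or below 0.684 and the other 4 at 2.28 or more, so no correlation is given there. Replicates 1 and 3 had the highest Hsp83, Hsp26, Hsp27 and Hsp60A of the group. Replicates 2, 4 and 6 had the lowest, and replicate 5 lay between in all 4. Replicates 2, 4 and 6 also had the most elav in the group, so high elav went with low values of these 4 mRNAs and high Hsp23 there. The same was seen in both wild-type groups but not in Zld294. Replicate 3 of WT day 1 and replicate 5 of WT day 2 had the most elav of their groups (11.1 and 2.06 TPM). They also had the lowest values of these 4 mRNAs and the highest Hsp23 of their groups. In Zld294, replicate 7 had the most elav (8.95 TPM) but was lowest in none of the 4, and had 39.1 TPM of Hsp23. Replicate 8 of Zld294 was lowest in Hsp83, Hsp26 and Hsp60A with 1.29 TPM of elav. The part of other stages in these values was not tested.

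**Figure D4:**
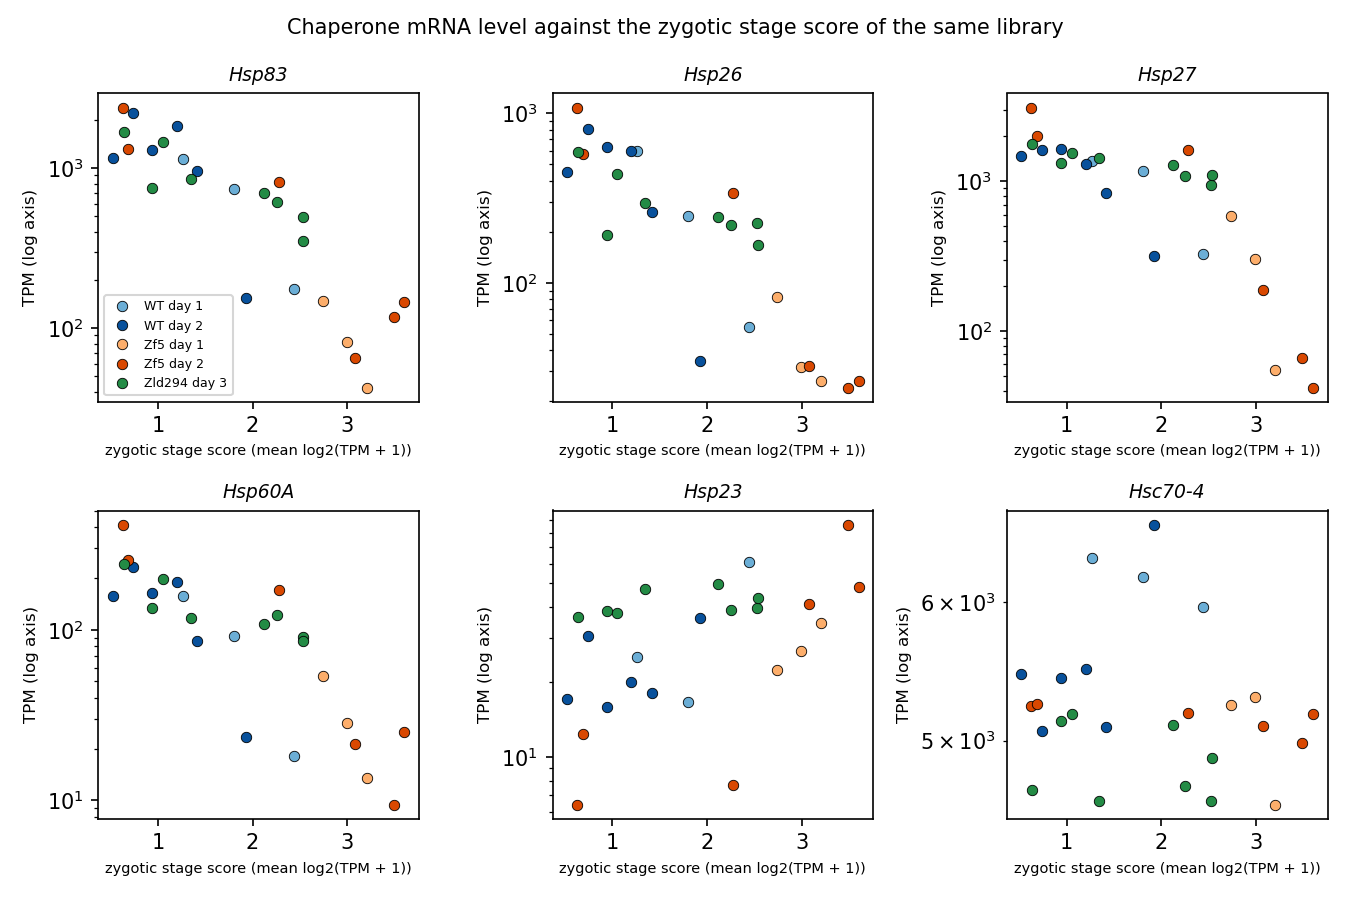
TPM (log axis) of the 6 mRNAs against the zygotic stage score of the same library, the mean log2(TPM + 1) of 28 zygotic genes; each point is a library, coloured by genotype and day. Hsp83, Hsp26, Hsp27 and Hsp60A are lower in libraries of higher score, with r of -0.88, -0.71, -0.91 and -0.86 in Zld294, whereas Hsc70-4 shows no such slope.

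A second score, the mean log2(TPM + 1) of 12 mRNAs that are cleared from the early embryo, such as nos, bcd, twe and CycB, ran from 4.06 to 8.46 in Zf5 day 2 and from 7.72 to 8.34 in Zld294. Within WT day 2 it correlated with Hsp83 (r = 0.98), Hsp26 (0.97), Hsp60A (0.96) and Hsp27 (0.93), with adjusted exact permutation p from 0.00833 to 0.0385 (n = 6). Spearman's rho was 0.94, 0.83, 0.94 and 0.60, of which Hsp83 and Hsp60A passed (adjusted exact permutation p = 0.0333 each), and r without the 2 farthest libraries was 0.88, 0.91, 0.80 and 0.70. Within Zld294 the r values were 0.96, 0.93, 0.97 and 0.90, with adjusted exact permutation p from 0.00223 to 0.00833 (n = 8). There rho was 0.98, 0.79, 0.93 and 0.88, of which Hsp26 did not pass (adjusted exact permutation p = 0.0503), and r without the 2 farthest libraries was 0.94, 0.77, 0.94 and 0.85. Hsp23 had r of -0.50 in both groups and did not pass. Relations with this score were also tested for the 6 mRNAs only, with no share of all genes beside them. With this score in the fit, added after seeing the data, 5 of the 6 passed in Zld294 against the wild type: Hsp23 (1.02) higher and Hsp26 (-0.96), Hsp83 (-0.89), Hsc70-4 (-0.19) and Hsp60A (-0.32) lower, with adjusted p under 0.05 by limma. In that fit 35.4% of all genes passed.

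For each of the 6 mRNAs the genes of the most similar pattern were taken as those of highest Pearson correlation of log2(TPM + 1) over the 26 libraries, among the 6418 genes with a mean of at least 5 TPM. These correlations share libraries, genotypes and days and carry no test. For Hsp83 they were CG10254 (0.98), CG11902 (0.98) and D12 (0.98), and Hsp26 came at rank 19. For Hsp26 they were CG17734, Gdi and CG8001 (each 0.99), with Hsp83 at rank 70. For Hsp27 they were Hydr2, msk, which encodes an importin, and Pxt (each 0.99), while Hsp83 (0.88) came only at rank 845. Many other genes thus shared the pattern of these mRNAs. For Hsp60A they were the kinesin gene Klp3A (0.99), the MAP kinase kinase gene Dsor1 (0.99) and CG3356 (0.99). Hsp23 was nearest to CG33095 (0.85), cass (0.85) and the piRNA pathway nuclease gene zuc (0.84), and Hsc70-4 to Msp300 (0.81), spo (0.78) and CG8960 (0.78).

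The rest of the chaperone system was read from 6 lists, which matched 60 genes with the 6 included. In Zf5 against the wild type over both days, 49 of the 60 were tested, 2 were higher and 0 lower (limma, adjusted p under 0.05), against 3.10% and 2.10% of all genes. Both were stress-inducible Hsp70 genes, Hsp70Ab (2.74, SE 0.52, adjusted p = 0.00396) and Hsp70Bb (1.99, SE 0.48, adjusted p = 0.0207 by limma), out of 8 tested of that list, whose median log2 fold change was 1.43. Hsp70Bb had at most 1.31 TPM in WT day 1 and 0.689 TPM in WT day 2, so it passed the filter through the Zf5 libraries. A lower call was hardly possible for it, so its higher call is weak evidence of a difference. Hsp70Bc, also tested, had at most 0.617 TPM in the wild type, so only a higher call was possible for it. The copies of Hsp70 are nearly identical, so the split of reads among them is uncertain. Summed over its copies, Hsp70 had 21.7, 34.0 and 7.17 TPM in WT day 1 and 1.40 to 5.39 TPM in WT day 2. It had 52.1, 27.5 and 55.7 TPM in Zf5 day 1, 11.6 to 143 TPM in Zf5 day 2 and 6.39 to 10.6 TPM in Zld294. Every Zf5 day 2 library was thus above every WT day 2 library, also replicates 1 and 3 (32.8 and 65.0 TPM), which had the most Hsp83. The highest value was that of replicate 6, which also had later-embryo markers. Without replicates 4 and 6, Hsp70Ab still passed over both days at 2.36 (adjusted p = 0.0146 by limma). Hsp70Bb passed there at 1.32 (adjusted p = 0.0135 by limma), with the same limit from the filter. Within day 2 alone Hsp70Ab missed the threshold (2.59, adjusted p = 0.0562 by limma). Within day 1 alone, 0 of 7 tested genes of the list passed, with a median of 0.99. On day 1, 2 genes of the list passed as lower in Zf5 without replicate 3 of WT day 1. With all 26 libraries in the fit, 1 passed there as higher. Over both days, 5 genes of the list passed without replicate 1 of Zf5 day 2 or with all 26 libraries in the fit, and 4 without replicate 3, without replicate 5 or with a pseudocount of 0.1. The count fell to 1 with a pseudocount of 5 and with the zygotic stage score as covariate. Without replicate 1 of Zf5 day 2, 10.7% of all genes passed. These counts and the median of 1.43 are descriptions, because the list holds genes that reached the test through the Zf5 libraries.

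The medians of the other lists in Zf5 against the wild type were -0.58 for 9 chaperonins, -0.34 for 10 J-domain co-chaperones, -0.32 for 5 constitutive Hsp70 genes, -0.19 for 6 small heat shock genes and -0.012 for 11 genes of the Hsp90 family and its co-chaperones, beside 0.014 over all genes. None of these genes passed. Of 10 genes for factors that act in the clearance of Hsp83 and other maternal mRNAs, such as smg, twin and Not1, 0 passed and the median was -0.52. The 12 cleared maternal mRNAs had a median of -1.11 with 0 passing.

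In Zld294 against the wild type, 42 of the 60 chaperone genes were tested, of which 3 were higher and 1 lower by limma, against 8.29% and 6.76% of all genes. Besides Hsp23 and Hsc70-4 these were Hsp68, an inducible Hsp70 (1.34, SE 0.35, adjusted p = 0.0135 by limma), and Hsp70Ab (1.16, SE 0.35, adjusted p = 0.0297). Hsp68 stood at 0.745 to 2.49 TPM in WT day 2, 2.45 to 8.19 TPM in WT day 1 and 3.59 to 16.3 TPM in Zld294, so it overlapped WT day 1 but not WT day 2. No inducible gene passed as higher against WT day 1 alone, with all 26 libraries in the fit or with a replicate block. Against WT day 1 alone, 1 gene of the inducible list passed as lower in Zld294. The count of 2 became 1 with a pseudocount of 0.1, with no filter, with a filter of 5 TPM, and without replicates 1 or 6 of WT day 2 or replicates 2, 6, 7 or 8 of Zld294, left out singly. Among the clearance factors Not3 (0.52, adjusted p = 0.0228 by limma) and Not1 (0.42, adjusted p = 0.0490), subunits of the CCR4-NOT deadenylase, were higher. Not1 was also lower in WT day 2 than in WT day 1, as given below, so its difference may depend on which wild type is used. Of the cleared maternal mRNAs, twe was higher (0.22, adjusted p = 0.0265 by limma), as was mid (2.25, adjusted p = 0.0443) of the zygotic list.

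Between the mutants, 44 of the 60 chaperone genes were tested, 0 were higher and 4 lower in Zld294, against 2.34% and 4.23% of all genes. The 4 were Hsp70Bb (-1.85), Hsp70Bbb (-1.61), Hsp70Ab (-1.58) and the J-domain gene DnaJ-60 (-0.63), with adjusted p from 0.0208 to 0.0447 by limma. Hsp70Bbb had at most 0.846 TPM in Zld294, so it passed the filter through the Zf5 libraries alone. Only a lower call was possible for it, which makes that call no evidence of a difference. Hsp70Bb had a median of 0.642 TPM in Zld294, so its call carries part of the same limit. Without replicates 4 and 6 of Zf5 day 2, DnaJ-60 passed (-0.58, adjusted p = 0.0397 by limma) but Hsp70Bb (-1.29, adjusted p = 0.0886) and Hsp70Ab (-1.26, adjusted p = 0.102) did not. Hsp70Bbb was no longer among the genes tested there. The inducible Hsp70 calls were lost, from 3 to 0, in 11 of 17 fits that left out a single library: any of replicates 1 to 7 of Zld294, replicates 4 or 6 of Zf5 day 2, or replicates 1 or 3 of Zf5 day 1. The count was also 0 with no filter, a replicate block, only Zf5 of day 2 or the cleared maternal score as covariate. It was 1 with a pseudocount of 5, a filter of 5 TPM, the zygotic stage score as covariate, or without replicate 2 of Zf5 day 2 or replicate 8 of Zld294, and 2 with median-ratio scaling or without replicates 1 or 3 of Zf5 day 2 or replicate 2 of Zf5 day 1. The maternal mRNA bcd was higher in Zld294 (2.46, SE 0.58, adjusted p = 0.0163 by limma). Between the wild-type lines, Hsp68 was lower on day 2 (-1.31, SE 0.34, adjusted p = 0.0480 by limma), the 1 of 43 chaperone genes tested that passed, against 2.64% of all genes. No inducible gene passed as lower in 8 of 10 other alternatives (pseudocounts of 0.1 and 5, a filter of 5 TPM, median-ratio scaling, all 26 libraries, robust eBayes, a replicate block and the zygotic score). The same held in 7 of 9 fits that left out a single library (replicates 1, 2, 3, 4 or 6 of WT day 2, replicates 1 or 2 of WT day 1), while 2 genes passed without replicate 3 of WT day 1. Not1 was lower (-0.74), and me31B (0.43) and plu (0.99) were higher on day 2, with adjusted p from 0.00323 to 0.0256 by limma.

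**Figure D5:**
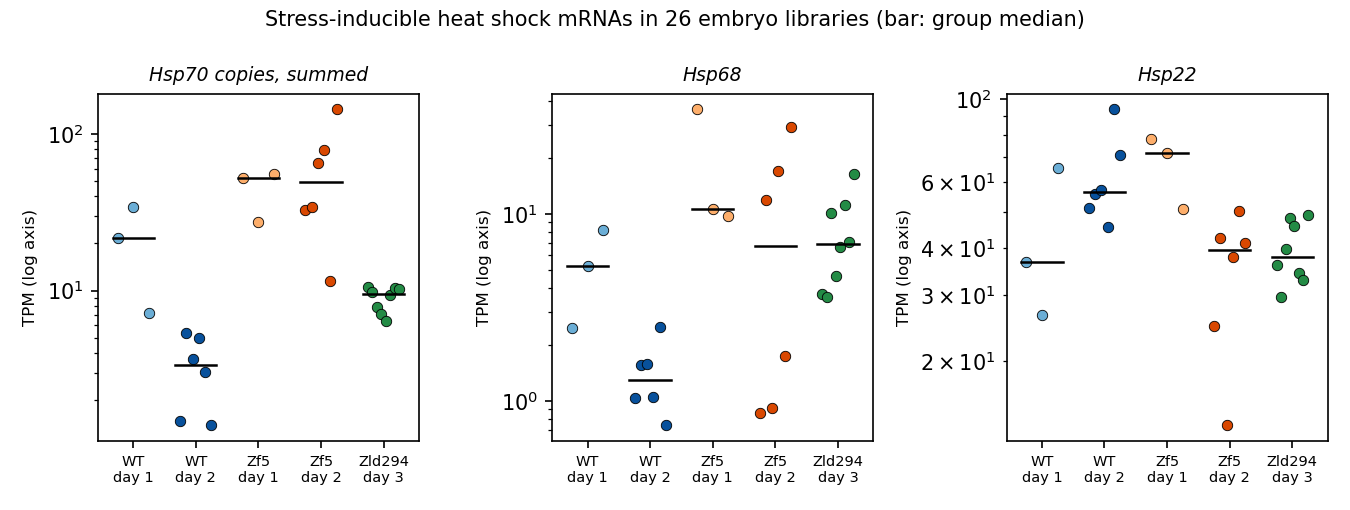
TPM (log axis) of the summed Hsp70 copies, Hsp68 and Hsp22 in each of the 26 libraries; each point is a library and the bar is the group median. All Zf5 day 2 libraries (11.6 to 143 TPM) lie above all WT day 2 libraries (1.40 to 5.39 TPM) in summed Hsp70, while Hsp22, which shares its locus with CG4456, overlaps between these groups.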

How the data were processed

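Per the labels, embryos were lysed in TRIzol and NEBNext Ultra II libraries were built from total RNA. The submitters' processing notes name kallisto, edgeR, limma and build BDGP6 with no role or version. The deposited values were taken as TPM: they are not whole and sum to 1000000 per library, while neither labels nor headers name a unit. TPM keeps no depth. The files used hold no counts, so no count model was run; each comparison was fitted with limma 3.58.1 (R 4.3.3; lmFit, eBayes with trend) on log2(TPM + 1) over genes that reached 1 TPM in a number of libraries equal to the size of the smallest group. Fold changes on this scale understate low genes. P-values were adjusted over all genes tested, threshold 0.05. Single relations used exact permutation tests (scipy 1.17.1). The fits were run on simulated data with 200 genes changed by 2 in log2. Zf5 against WT recovered 80.5% of these over both days, 56.5% on day 1, 67% on day 2 and 33% in the interaction. Zld294 recovered 92.5% against WT and 89% against Zf5, and the wild-type comparison 73%. False calls were 4.15% to 9.04% of all calls, the most in Zf5 against WT over both days. The changed genes were drawn at random and the noise was independent between genes, so these rates describe typical genes. Hsp83, Hsp26, Hsp27 and Hsp60A varied more than most genes and varied together, so the rates may overstate recovery for them. Counts of 0 passing thus leave real differences possible. No 2 libraries were identical (highest correlation 0.997).

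Members and lists were chosen with earlier results of these data known. The 6 members were always named; of each list, up to 3 genes per direction that passed in a comparison, and for each member the 3 most similar genes. Of 12 names in the Hsp90 list, 11 matched. Sums over Hsp70 copies and ratios to Hsp83 were chosen after seeing the data. Alternatives were other pseudocounts (0.1 and 5), filters, median-ratio scaling, a fit of all 26 libraries, robust eBayes, a replicate block, stage covariates, single days and leaving out libraries.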

Additional observations from a re-analysis of the deposited data

Results flagged for a closer look

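Replicate 5 of WT day 2 had 6647 TPM of Hsc70-4, far above the other 5 libraries of its group, measured by its gap to the next value over the whole range of the group. It was the 1 of 18 sets of gene and group tested in this way that stood out, and chance gives about 1 in 20. The same library had the lowest Hsp83, Hsp26, Hsp27 and Hsp60A of its group.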

How the results depend on the processing

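Of 1050 alternative log2 fold changes of the 6 mRNAs, 924 kept their direction and their side of the threshold, 16 lost it, 23 gained it and 87 changed sign. None of these 87 was past the threshold as reported and 2 were past it after the change. The cause was not tested.

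The count of the 6 passing in Zf5 against WT over both days was 0 and became 1 with all 26 libraries fitted together (Hsp83, adjusted p = 0.0429 by limma), 2 with the zygotic stage score as covariate (Hsp23 at -1.05, adjusted p = 0.0236; Hsp60A), and 1 with the cleared maternal score as covariate (Hsp23 at -0.69, adjusted p = 0.0448); leaving out single libraries gave 0 to 1. Of all 8151 genes tested over both days, 2936 passed with the zygotic score and 901 with the maternal score. On day 1 the count of the 6 became 1 with the maternal score (Hsp83 at -1.76, adjusted p = 0.0151 by limma) and 0 to 2 without single libraries. With the maternal score, 362 of all 7172 genes tested passed on day 1. In Zld294 against WT the count of the 6 was 2 and became 1 with no filter, 0 with median-ratio scaling, 1 with all 26 libraries, 1 with only WT day 1, 1 with only WT day 2, 5 with the maternal score and 1 to 2 without single libraries. Of all genes, 27.0% passed with only WT day 1, 23.8% with only WT day 2 and 35.4% with the maternal score. In Zld294 against Zf5 the count of the 6 was 0 and became 1 with the zygotic score, 1 with the maternal score (both Hsp23), 5 with only Zf5 of day 1 and 0 to 4 without single libraries. There 1169 of all 7050 genes tested passed with the maternal score, and 58.5% of all genes with only Zf5 of day 1. Of 18 stage relations 8 passed, 4 of them in Zf5 day 2, where the score was clustered and passing is not read as a result. The count was 13 with the maternal score, 4 with Spearman's rho, 3 without replicates 4 and 6 of Zf5 day 2, and 3 to 10 without single libraries. No share of all genes was computed beside these counts of relations.

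In fits with either score as covariate, a genotype effect on the score's genes and stage cannot be told apart. With the zygotic score Hsp27 passed in Zld294 against WT (0.65, adjusted p = 0.0463 by limma), making 3 of 6. That count is a description, with no share of all genes beside it. With it the sign changed in Zf5 against WT over both days for Hsp26 (0.61), Hsp27 (0.66), Hsp83 (0.028) and Hsp60A (1.03, adjusted p = 0.0461 by limma), on day 1 for the same genes (1.17, 0.97, 0.16 and 2.03), on day 2 for these (0.84, 0.81, 0.41 and 1.09) and Hsp23 (-0.99), in Zld294 against WT for Hsp26 (0.35) and Hsp83 (0.34), and in WT day 2 against day 1 for Hsp23 (0.065), Hsp26 (-1.31), Hsp27 (-0.82), Hsp83 (-0.69) and Hsp60A (-0.77). With the maternal score it changed for Hsp60A over both days (0.24), on day 2 for Hsp23 (-0.73), Hsp26 (0.045), Hsp27 (0.091) and Hsp60A (0.48), in the interaction for Hsp23 (-0.084), in Zld294 against WT for Hsp27 (-0.10) and Hsp60A (-0.32, adjusted p = 0.0440 by limma), in Zld294 against Zf5 for Hsp26 (-0.020) and Hsp60A (-0.18), and between the wild types for Hsp26 (-0.45), Hsp27 (-0.28), Hsp83 (-0.071) and Hsp60A (-0.090). Without replicates 4 and 6 of Zf5 day 2 it changed on day 2 for Hsp23 (-0.73), Hsp27 (0.16) and Hsp60A (0.29), and in the interaction for Hsp23 (-0.63). Against only WT day 1, Zld294 had 0.42 for Hsp26 and 0.52 for Hsp83. Hsp23 in Zf5 against WT was 0.022 over both days with a pseudocount of 5 and -0.0071 on day 2 with 0.1. The correlation of Hsc70-4 with stage was -0.23 in Zld294 and became -0.0071 with the maternal score. In Zf5 day 2, where the score was clustered, the correlation of Hsc70-4 was -0.74 and became 0.89 with median-ratio scaling (adjusted exact permutation p = 0.0417).

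Leaving out single libraries, the log2 fold change of Hsp23 spanned -0.27 to 0.19 in Zf5 against WT over both days, -0.50 to 0.40 on day 1, -0.36 to 0.35 on day 2, -0.38 to 0.52 in the interaction and -0.82 to 0.087 between the wild types. In the interaction Hsp27 spanned -0.40 to 1.30 and Hsp60A -0.19 to 1.34. In Zld294 against WT Hsp26 spanned -0.42 to 0.14 and Hsp83 -0.36 to 0.12. Between the wild types Hsp26 spanned -0.23 to 1.48, Hsp27 -0.26 to 0.77 and Hsp60A -0.057 to 1.47. In WT day 2 the correlation with stage spanned -0.19 to 0.83 for Hsp23 and -0.23 to 0.89 for Hsc70-4.

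Same-numbered libraries did not deviate together in 6 of 7 pairs of groups (correlations from -0.75 to 0.71), the exception being WT day 1 with Zld294 (0.13 to 0.72, on different days). At most 1 library in a pair of groups matched its own number best, so the libraries share only a number. With a replicate block, 0 of the 6 passed in Zld294 against WT (Hsp23, adjusted p = 0.0506; Hsc70-4, 0.171 by limma), where Hsp26 had 0.23 and Hsp83 0.26; no other count of the 6 moved. Genes passing under the block were 193 of Zf5 against WT over both days (424 without), 21 on day 1 (121), 57 on day 2 (133), 16 in the interaction (39), 532 in Zld294 against WT (1042), 71 against Zf5 (463) and 0 between the wild types (587). The highest counts were 2936, 410, 2326 and 145 for the Zf5 comparisons with the zygotic score, 2449 for Zld294 against WT with the maternal score, 4231 against Zf5 of day 1 only and 2063 between the wild types with the zygotic score. The number of reads behind each TPM is unknown, so noise from depth cannot be told apart from differences among embryos.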
